A study of Homo sapiens with 12 samples.

Results

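SUM159, a triple-negative breast cancer line, carried either a hairpin against E4F1 (shE4F1) or a scrambled control hairpin (shCTRL), and both groups compared here received 140 nM gemcitabine for 24 h before RNA was taken. Each of these groups, shE4F1 with gemcitabine and shCTRL with gemcitabine, held 3 libraries, so that 6 of the 12 libraries of the series enter the comparison. The other 6 libraries are 3 of shE4F1 and 3 of shCTRL cells without drug. The members are all 22433 genes of the table that the authors deposited for this pair of groups, chosen by the table and not by any value in it. Polyadenylated RNA was read with a stranded kit as single-end reads of 50 bases. The labels name 1 cell line and 1 hairpin name per arm, and leave unsaid if the 3 libraries per arm are separate cultures, so p-values reflect only the spread among the libraries and that spread may be technical.

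E4F1 is a ubiquitously expressed zinc finger protein first described as a cellular factor of the adenovirus E4 promoter. It is known as a transcription factor for genes of pyruvate oxidation and of the checkpoint kinase CHK1 pathway, and as an atypical ubiquitin ligase for p53. Gemcitabine is a deoxycytidine analogue: cells import it through nucleoside transporters, phosphorylate it with deoxycytidine kinase, and its products block ribonucleotide reductase and stop DNA chain elongation, which stalls replication forks and activates the ATR and CHK1 kinases. The comparison answers how cells with less E4F1 transcript differ from control cells when both are under this replication stress.

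Values are log2 fold changes of shE4F1 over shCTRL, each with its standard error (± SE), from the authors' deposited table of 3 against 3 libraries unless another table is named. A gene "rose" or "fell" where the adjusted p of the authors' DESeq2 test was under 0.05. The deposited table holds a mean normalized count over the 6 libraries in place of a value per library. Values of single libraries and their overlap were therefore not analysed here, and depth per library is unknown. Precision follows the level: the median SE was 0.206 over all genes and 0.108 for genes with a mean of at least 1000, of which 63.1% were called, against 6.5% of genes with a mean under 10. In bulk RNA, fewer cells of a kind and less RNA per cell cannot be told apart.

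The E4F1 transcript (ENSG00000167967, chromosome 16, 2223566 to 2235742, plus strand, GRCh38) had a mean normalized count of 294.5 and stood at 0.532 times its level in shCTRL cells, or -0.91 ± 0.16 on the log2 scale (adjusted p = 1.47e-07) in the authors' deposited table. It stood at -0.99 ± 0.26 in the table of untreated cells, and gemcitabine alone gave -0.29 ± 0.25 in shCTRL cells (adjusted p = 0.433). The transcript was thus reduced and not removed. A second route to the same contrast subtracts the deposited table of gemcitabine in shCTRL cells from the deposited table of shE4F1 with gemcitabine, since both are set against untreated shCTRL cells. It gave -0.89 for E4F1, with an adjusted p of 0.0763. Its SE counts the untreated shCTRL libraries in both tables and is too large. The same second route called 3649 of 20909 genes (17.5%), 1686 (8.06%) higher and 1963 (9.39%) lower. All 8956 genes that the direct table called and that had a value by the second route kept their direction. Untreated shCTRL libraries cancel in the subtraction, so its values rest on the same gemcitabine libraries as the direct table. The kept direction was therefore nearly fixed in advance and is no independent support.

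Of the 22433 genes, 9202 (41.0%) changed, 4546 (20.3%) higher and 4656 (20.8%) lower in shE4F1 cells, around a median of 0.00. A change of at least 1 on the log2 scale was seen for 3048 genes, 1416 higher and 1632 lower. Changes of at least 2 were seen for 438, of which 182 were higher and 256 lower. Among genes with a mean of at least 50, the level of most members named below, 29.6% rose and 29.8% fell around a median of 0.01. The counts of each gene list below are to be read against these shares.

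**Figure D1:**
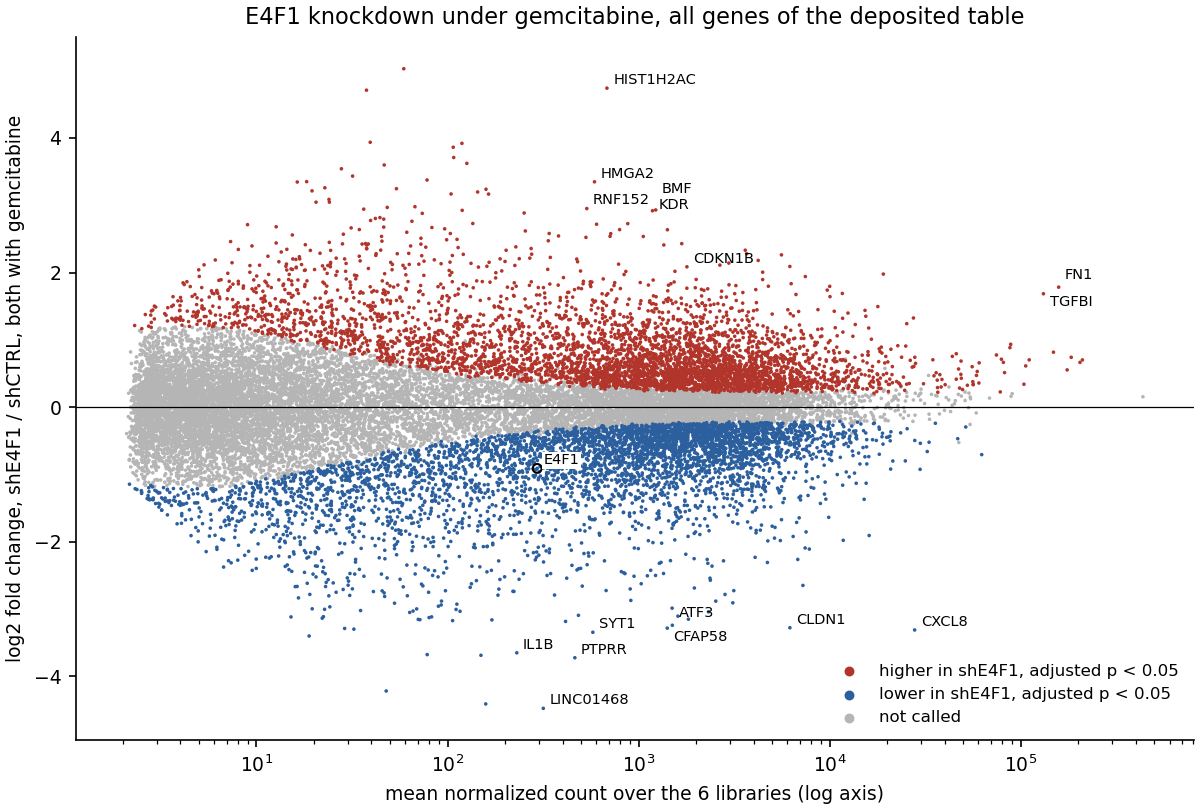
Each point is 1 of the 22433 genes: its mean normalized count over the 6 libraries on a log axis, against its log2 fold change of shE4F1 over shCTRL under gemcitabine; red points rose, blue points fell and grey points were not called at an adjusted p under 0.05. The circled E4F1 point lies at -0.91, HIST1H2AC stands highest of the labelled genes at 4.74, and the abundant chemokine transcript CXCL8 lies at -3.31.

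The steepest falls among genes with a mean of at least 200 mixed inflammatory ligands, signalling genes and structural genes. IL1B, the interleukin 1 beta gene, fell by 3.65 ± 0.24 and CXCL8, the neutrophil chemokine interleukin 8, fell by 3.31 ± 0.33 in the deposited table. PTPRR, a tyrosine phosphatase that inactivates ERK, was at -3.72 ± 0.17, and the calcium sensor of vesicle release SYT1 at -3.34 ± 0.15. CLDN1, a tight junction claudin, fell by 3.28 ± 0.33, the stress transcription factor ATF3 fell by 3.24 ± 0.17, the imprinted hydrolase-like gene MEST fell by 3.18 ± 0.16 and the LIM domain cofactor FHL2 fell by 3.10 ± 0.14. The EGF receptor ligand amphiregulin, AREG, was at -3.09 ± 0.16, and at -2.18 by the second route. Long noncoding RNAs LINC01468 (-4.47 ± 0.22) and LINC00707 (-3.15 ± 0.17) and the cilia-associated gene CFAP58 (-3.28 ± 0.16) complete the 12 largest falls in the deposited table.

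The 12 largest rises were led by HIST1H2AC, a histone H2A gene, at 4.74 ± 0.18 in the deposited table, a 26.7-fold difference. HMGA2, an architectural chromatin protein of embryonic and tumour cells, rose by 3.35 ± 0.33. RNF152, a lysosomal ubiquitin ligase acting on mTORC1 control, rose by 2.95 ± 0.15, and BMF, a BH3-only protein that promotes apoptosis, by 2.93 ± 0.34. KDR, the main VEGF receptor, rose by 2.92 ± 0.14, and MMP3, stromelysin 1, by 2.72 ± 0.16. Further deposited rises were those of the Tubby-like ciliary trafficking gene TULP3 (2.64 ± 0.13), the developmental gene LBH (2.64 ± 0.17), the GTPase GIMAP2 (2.62 ± 0.18), CASC10 (2.58 ± 0.17) and RP11-420L9.5 (2.73 ± 0.16). By the second route LBH was at 2.02 and CLDN1 at -2.69, so that their size is less sure than their SE shows.

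The interleukin and growth cytokine genes had the lowest median of the 73 gene lists examined. Of 18 listed, 14 fell and 2 rose, around a median of -1.53, and by the second route 8 were called lower and 1 higher. These are secreted signals of inflammation, many of them under NF-kB and AP-1 control. IL6 fell by 2.69 ± 0.15, IL1A fell by 2.78 ± 0.16 and CSF2, encoding GM-CSF, fell by 2.16 ± 0.36 in the deposited table. The second route put IL1A at -2.04 and CSF2 at -0.62, the latter with no call, so the fall of CSF2 is uncertain. TSLP, an epithelial alarmin, fell by 2.08 ± 0.16 and LIF, of the interleukin 6 family, fell by 1.37 ± 0.13. IL32, with a mean normalized count of 9878, fell by 1.64 ± 0.10. The list was not uniform: IL7 rose by 0.54 ± 0.16 and CSF1, the macrophage growth factor, by 0.63 ± 0.12 in the deposited table.

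Among 18 chemokine genes 6 fell and 2 rose (median -0.60), but 9 of the 18 had a mean under 50. CXCL8 (ENSG00000169429, chromosome 4, 73740506 to 73743716, plus strand, GRCh38) was the most abundant of them, with a mean of 27820, and stood 9.92-fold lower in shE4F1 cells (adjusted p = 1.23e-21) in the deposited table. The second route gave -2.21. CCL20, which attracts CCR6-bearing lymphocytes, fell by 2.87 ± 0.39, and the CXCR2 ligands CXCL1, CXCL2 and CXCL3 were at -1.74 ± 0.31, -1.35 ± 0.16 and -1.30 ± 0.18 in the deposited table. CCL5, a T cell attractant that interferon signalling also induces, went the other way at 1.24 ± 0.33, and the membrane-bound chemokine CXCL16 rose by 0.42 ± 0.18, a call lost by the second route and after centring.

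Genes of the NF-kB pathway fell in 14 of 23 cases and rose in 2 (median -0.50), with 6 lower and 2 higher by the second route. NF-kB dimers bind kappaB sites and induce, beside cytokines, their own inhibitors. The subunit precursor NFKB1 fell by 1.05 ± 0.11, NFKB2 fell by 0.57 ± 0.09 and the subunit REL fell by 0.36 ± 0.15 in the deposited table. The transactivating subunit RELA was at 0.01 ± 0.10, with no call. Feedback genes fell as well: TNFAIP3, which encodes the ubiquitin-editing inhibitor A20, fell by 1.29 ± 0.16, and TRAF1, a TNF receptor adaptor, fell by 1.35 ± 0.17. ICAM1, the leukocyte adhesion receptor, fell by 1.14 ± 0.13 and PTX3, a secreted pattern recognition molecule, fell by 1.49 ± 0.30. The exceptions were the inhibitor NFKBIA, which rose by 0.81 ± 0.10, and SOD2, the mitochondrial superoxide dismutase, which rose by 0.70 ± 0.12 at a mean of 110600.

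The promoters of CXCL8 and TNFAIP3 were read from RefSeq (GRCh38.p14), from 250 bases before to 50 bases after the start. Each was chosen as the gene of its list that changed most, among members with a mean of at least 50 that hold the kappaB word. Capitals mark the kappaB word, GGAATTTCC or GGACTTTCC on either strand; TNFAIP3 holds the second on the opposite strand.
CXCL8, chr4:73740319-73740618, plus strand: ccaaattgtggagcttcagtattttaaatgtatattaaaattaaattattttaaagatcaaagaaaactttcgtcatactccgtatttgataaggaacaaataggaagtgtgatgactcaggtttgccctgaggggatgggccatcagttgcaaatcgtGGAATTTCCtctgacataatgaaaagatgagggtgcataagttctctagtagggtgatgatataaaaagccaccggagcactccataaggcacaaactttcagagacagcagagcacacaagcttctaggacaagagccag
TNFAIP3, chr6:137867009-137867308, plus strand: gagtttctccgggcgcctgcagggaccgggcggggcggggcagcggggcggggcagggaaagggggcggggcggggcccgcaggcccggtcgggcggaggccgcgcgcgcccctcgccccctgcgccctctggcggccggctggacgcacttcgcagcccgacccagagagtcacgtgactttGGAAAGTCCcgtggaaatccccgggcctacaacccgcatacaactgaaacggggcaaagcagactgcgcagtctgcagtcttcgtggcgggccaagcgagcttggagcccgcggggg
The word starts 91 bases before the start of CXCL8 and 67 bases before that of TNFAIP3. It lay in 7 of 13 chemokine promoters found in the table, those of CXCL1, CXCL2, CXCL3, CXCL5, CXCL8, CXCL10 and CXCL11, and in 6 of 21 promoters of the NF-kB list. Of all 27305 RefSeq promoters 0.842% hold it, and 0.858% of the 10025 matched promoters of genes with a mean of at least 50. It was present both in genes that fell, such as CXCL8 and ICAM1, and in NFKBIA, which rose. A match of letters is a description, not a binding site.

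The difference between the knockdown effect under gemcitabine and the knockdown effect without drug was computed for every gene, from deposited tables that share no library. If the authors' fold changes were moderated, genes scarce without drug would be shrunk most there, which could alone give a difference. That was not tested. Of 20923 genes with both values, 1137 (5.43%) differed, 587 (2.81%) with a higher and 550 (2.63%) with a lower effect under gemcitabine. In the untreated comparison 7149 of 19472 genes (36.7%) were called, 3398 (17.5%) higher and 3751 (19.3%) lower. In the NF-kB list 9 of 23 members differed and in all 9 the effect was lower under gemcitabine. TNFAIP3 stood at 1.41 ± 0.17 without drug in the deposited table, a difference of -2.70 ± 0.23, and TRAF1 at 1.18 ± 0.40, a difference of -2.53 ± 0.43. REL was at 0.79 ± 0.20 without drug and -0.36 ± 0.15 with it. For CXCL8 the deposited value without drug was -0.94 ± 0.26 and the difference -2.37 ± 0.42. For IL1A (-1.94 ± 0.30 without drug) the fall was present in both conditions and the difference was not called (adjusted p = 0.142).

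The deposited table of gemcitabine in shCTRL cells shares the 3 shCTRL gemcitabine libraries with the comparison above, so no overlap between them is given and their values are only set side by side. In that table gemcitabine raised CXCL8 by 4.94 ± 0.38, IL6 by 4.12 ± 0.22, IL1B by 4.29 ± 0.27 and TNFAIP3 by 4.08 ± 0.19 in shCTRL cells. In the deposited table of shE4F1 with gemcitabine against untreated shCTRL cells the same genes stood at 2.73 ± 0.24, 1.57 ± 0.22, 0.74 ± 0.41 (adjusted p = 0.173) and 2.88 ± 0.16. The knockdown cells under drug thus lay above untreated control cells for CXCL8, IL6 and TNFAIP3, and below drug-treated control cells for all 4 genes.

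**Figure D2:**
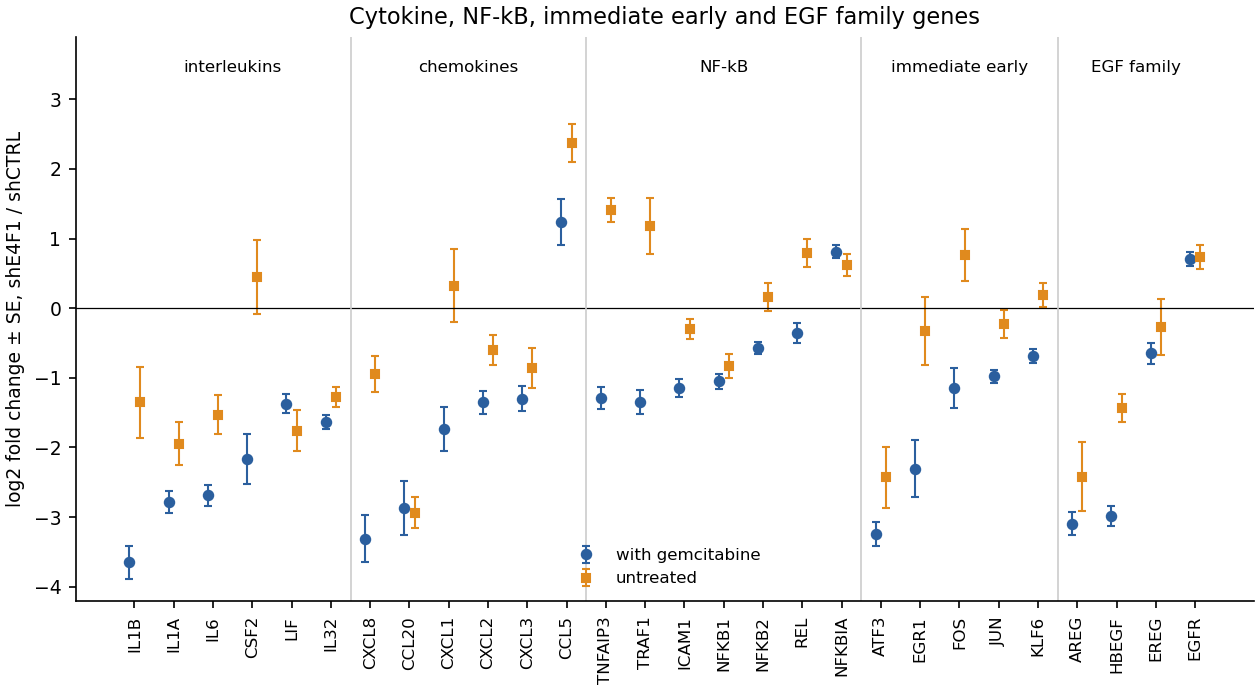
Log2 fold changes of shE4F1 over shCTRL (vertical axis, bars ± SE) for genes of 5 groups, with gemcitabine (blue circles, 3 against 3 libraries) and untreated (orange squares, 3 against 3 other libraries). Most blue points of the interleukin, chemokine and NF-kB groups lie below 0; TNFAIP3, TRAF1 and REL lie above 0 without drug and below 0 with it, while CCL5, NFKBIA and EGFR are above 0 in both.

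Cytokine receptor genes, a general list that also holds receptors for other ligands such as interferons, were split. Of 20 listed, 9 rose and 7 fell (median 0.15). IL7R, the interleukin 7 receptor, fell by 2.91 ± 0.16 in the deposited table and was at 0.05 ± 0.29 without drug, with a difference of -2.96 ± 0.33. IL6ST, the shared gp130 chain, fell by 1.37 ± 0.09 at a mean of 15140, and the interleukin 33 receptor IL1RL1 fell by 1.56 ± 0.14. In contrast IL1R1, the signalling receptor of interleukin 1, rose by 1.90 ± 0.11, IL6R by 1.53 ± 0.11 and IL31RA by 1.06 ± 0.12 in the deposited table. Ligand and receptor thus moved in opposite directions for IL1A and IL1B against IL1R1. IL6 fell while IL6R rose, but the shared gp130 chain IL6ST fell with IL6.

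AP-1 and immediate early genes, which serum, ERK and stress kinases induce within minutes, fell in 15 of 22 cases and rose in 1 (median -0.76). By the second route 9 were called lower. EGR1 fell by 2.31 ± 0.41, its SE larger than that of most genes of its level, the small MAF protein MAFF fell by 1.66 ± 0.10, JUN fell by 0.98 ± 0.10 and KLF6 fell by 0.68 ± 0.10 in the deposited table. ATF3, named above, was the deepest of the list. FOS was at -1.15 ± 0.29 with gemcitabine and 0.77 ± 0.37 without, and EGR1 at -0.32 ± 0.49 without. Of 21 members with both values 6 had a lower and 1 a higher effect under gemcitabine. MYC was the exception among the members, with a rise of 0.34 ± 0.12.

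ERK feedback genes were split, with 8 of 21 lower and 6 higher (median 0.04). PTPRR fell 13.2-fold under gemcitabine, was at -0.73 ± 0.41 without drug (adjusted p = 0.163) and differed by -2.99 ± 0.45. The nuclear ERK phosphatase DUSP5 fell by 1.36 ± 0.16 and the ETS factor ETV5 fell by 0.70 ± 0.10, while DUSP1, DUSP4 and the Sprouty gene SPRY1 rose by 1.11 ± 0.12, 0.82 ± 0.10 and 1.04 ± 0.22 in the deposited table. In the EGF family 9 of 17 members rose and 5 fell (median 0.53). AREG, HBEGF and EPGN, 3 ligands of the EGF receptor, were at -3.09 ± 0.16, -2.99 ± 0.14 and -1.31 ± 0.23. The receptor EGFR rose by 0.70 ± 0.10, its inhibitor ERRFI1 by 1.03 ± 0.12 and the ERBB4 ligand NRG4 by 1.35 ± 0.16 in the deposited table.

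Among 35 interferon-stimulated genes 15 rose and 4 fell (median 0.21), with 5 higher and 2 lower by the second route. IFI44L, a gene induced by type I interferon, rose by 1.47 ± 0.12, SAMD9L by 1.34 ± 0.14 and IFI6 by 1.21 ± 0.12 in the deposited table. The inducer IRF7 fell by 1.61 ± 0.19 and TMEM173, which encodes the DNA-sensing adaptor STING, fell by 0.82 ± 0.16. GBP1, a guanylate-binding protein, rose by 0.91 ± 0.14 under gemcitabine and by 2.56 ± 0.21 without drug, a difference of -1.65 ± 0.25. Of 17 antigen presentation genes 10 rose and 6 fell (median 0.49). The class I heavy chains HLA-B, HLA-F and HLA-C rose by 1.23 ± 0.11, 1.20 ± 0.11 and 1.05 ± 0.13, and B2M, the shared light chain, by 0.61 ± 0.09 at a mean of 106100 in the deposited table. The peptide transporter TAP1 fell by 0.92 ± 0.11, the loading factor TAPBP fell by 0.89 ± 0.10 and CD274, encoding the checkpoint ligand PD-L1, fell by 0.90 ± 0.14. Class I heavy chain genes are near-identical in parts, and how the counting split reads among them is not given in the sources used here.

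Genes that license and fire replication origins fell almost throughout: 19 of 23 fell, none rose, and the median was -0.69. By the second route 10 were called lower. GINS4, of the replicative helicase, fell 7.37-fold, the helicase loader CDC6 3.28-fold and ORC6, a subunit that marks origins, fell by 1.50 ± 0.11 in the deposited table. All 6 MCM2 to MCM7 helicase genes fell, from MCM7 at -1.37 ± 0.12 to MCM3 at -0.33 ± 0.10. MCM7, MCM2, MCM5, MCM4 and MCM6 were at -1.37 ± 0.12, -1.22 ± 0.11, -0.90 ± 0.11, -0.74 ± 0.11 and -0.61 ± 0.10. Members not called were ORC2, ORC4, ORC5 and DBF4. Without drug 20 of the 23 fell, and of the 3 members whose effect differed, all lay closer to 0 under gemcitabine.

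Replicative polymerases, clamp and clamp loader fell in 22 of 25 cases with none rising (median -0.60), 13 of them also by the second route. The polymerase epsilon subunit POLE3 fell by 1.56 ± 0.10, the nick-sealing ligase LIG1 fell by 1.28 ± 0.16, the clamp loader RFC3 fell by 1.21 ± 0.11 and the polymerase delta subunit POLD2 fell by 0.56 ± 0.10 in the deposited table. The sliding clamp PCNA (-0.24 ± 0.11), RPA1 (0.01 ± 0.09) and UHRF1 (0.03 ± 0.12) were the only members not called. Genes of deoxynucleotide supply fell in 10 of 17 cases and rose in 3 (median -0.29). Thymidine kinase TK1 fell by 1.05 ± 0.10 and RRM2, the small subunit of ribonucleotide reductase, fell by 1.04 ± 0.12. SAMHD1, which hydrolyses deoxynucleotide triphosphates, rose by 1.28 ± 0.10, the mitochondrial kinase TK2 by 0.45 ± 0.11 and CTPS2 by 0.50 ± 0.11 in the deposited table.

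The promoter of CDC6 (RefSeq, GRCh38.p14) is shown with E2F words, since E2F factors are known to control replication genes. CDC6 was chosen because it changed most among the licensing genes with a mean of at least 50 that hold such a word. Capitals mark an E2F word; those searched on both strands were TTTCCCGC, TTTGGCGC, TTTCGCGC and TTTGCCGC.
CDC6, chr17:40287629-40287928, plus strand: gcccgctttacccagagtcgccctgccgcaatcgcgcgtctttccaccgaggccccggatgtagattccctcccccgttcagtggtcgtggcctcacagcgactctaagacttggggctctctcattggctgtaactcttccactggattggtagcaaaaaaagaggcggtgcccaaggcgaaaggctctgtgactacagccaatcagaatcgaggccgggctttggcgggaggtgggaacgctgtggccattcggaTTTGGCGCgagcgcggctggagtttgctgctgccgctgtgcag
The word begins 7 bases after the start. It lay in 10 of 20 licensing promoters and 10 of 22 polymerase promoters, against 3.33% of all RefSeq promoters and 5.57% of those of genes with a mean of at least 50. Over all genes it was no more frequent in promoters of those that fell by at least 1 (5.23% of 707) than in this last share, and was in 3.15% of the 603 that rose by at least 1.

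The G1/S list fell in 12 of 23 cases and rose in 7 (median -0.25). CKS1B, which the SCF ubiquitin ligase needs to recognise p27, fell by 2.73 ± 0.11, the kinase CDK2 fell by 1.61 ± 0.14 and cyclin E1, CCNE1, fell by 1.28 ± 0.15 in the deposited table. Cyclin D1, CCND1, rose by 0.70 ± 0.12, the E2F partner TFDP2 by 0.55 ± 0.13 and E2F5 by 1.09 ± 0.12. CDK inhibitors moved in both directions, and 6 of the 8 asked for were listed. CDKN1B, encoding p27, rose 4.24-fold (2.08 ± 0.11, adjusted p = 3.33e-78) and CDKN2C, encoding p18, by 0.69 ± 0.12 in the deposited table. CDKN1A, encoding p21, fell by 1.13 ± 0.13 under gemcitabine but was at -0.21 ± 0.17 without drug (adjusted p = 0.364), a difference of -0.92 ± 0.22. CDKN3 fell by 0.43 ± 0.14, and CDKN2D (-0.35 ± 0.17) and CDKN1C (0.54 ± 0.31) had no call.

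Of 32 genes of mitotic entry and the spindle checkpoint 27 fell and none rose (median -0.55), and 8 of 12 mitotic kinesins fell and 1 rose (median -0.50). By the second route 11 and 4 were called lower. The checkpoint protein MAD2L1 fell by 1.14 ± 0.10, the kinetochore protein ZWINT fell by 1.11 ± 0.11 and CENPE, a kinetochore motor, fell by 1.28 ± 0.42, with a wide SE, in the deposited table. TOP2A, topoisomerase II alpha and the most abundant member, was at -0.11 ± 0.16 with no call. Among kinesins KIF18A, which limits spindle microtubule length, fell by 1.54 ± 0.17, KIF2C fell by 1.05 ± 0.13 and KIF23 fell by 0.35 ± 0.11, and KIF20A alone rose, by 1.02 ± 0.17. The difference from untreated cells was called for 2 of 32 and 0 of 12 members; at this precision the other effects were not told apart between conditions.

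The promoter of MAD2L1 (RefSeq, GRCh38.p14) is given with the cell cycle homology region word, TTTGAA or TTCGAA on either strand, in capitals. This word is known from promoters of G2 and mitotic genes that the DREAM complex represses. Among genes of the mitotic entry list with a mean of at least 50 that hold it, MAD2L1 changed most and was chosen for that.
MAD2L1, chr4:120066799-120067098, minus strand: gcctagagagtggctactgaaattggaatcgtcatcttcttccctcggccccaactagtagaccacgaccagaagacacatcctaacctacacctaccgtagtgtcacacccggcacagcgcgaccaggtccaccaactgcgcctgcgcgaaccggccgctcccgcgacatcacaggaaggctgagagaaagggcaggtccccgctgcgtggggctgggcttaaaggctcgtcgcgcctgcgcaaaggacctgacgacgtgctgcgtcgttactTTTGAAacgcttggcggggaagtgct
The word starts 24 bases after the start. It lay in 19 of 25 mitotic promoters and 10 of 12 kinesin promoters, against 16.6% of all RefSeq promoters and 11.3% of those of genes with a mean of at least 50. Over all genes it was in 92 of 707 promoters of those that fell by at least 1, and in 81 of 603 (13.4%) of those that rose by at least 1.

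Of 22 homologous recombination genes 16 fell and none rose (median -0.61), 10 of them also by the second route. RAD54B, a recombination ATPase, fell by 1.06 ± 0.18, the nuclease scaffold SLX4 fell by 1.05 ± 0.15 and BRCA1 fell by 0.85 ± 0.13 in the deposited table. In the Fanconi anaemia list, which unhooks interstrand crosslinks, 10 of 14 fell and 1 rose (median -0.63). FANCB fell by 1.12 ± 0.18, FAAP100 fell by 0.96 ± 0.14 and the monoubiquitinated FANCD2 and FANCI fell by 0.92 ± 0.14 and 0.69 ± 0.13, and FANCF rose by 0.68 ± 0.12 in the deposited table. Both lists also fell in untreated cells. There 17 of the 22 recombination genes were lower and none higher (median -0.89), and 9 of the 14 Fanconi anaemia genes were lower and none higher (median -1.08). The called differences, 4 and 3, were all positive, a higher effect under gemcitabine.

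Of 15 translesion synthesis genes 5 fell and 5 rose. MAD2L2, a subunit of polymerase zeta and of shieldin, fell by 2.72 ± 0.14 and RAD18, the ligase for PCNA, fell by 1.59 ± 0.11, while REV3L, the catalytic subunit of polymerase zeta, rose by 0.61 ± 0.13 in the deposited table. In end joining 6 of 14 fell and 1 rose (median -0.29): XRCC4 fell by 0.89 ± 0.15, POLQ, polymerase theta, fell by 0.53 ± 0.14 and C20orf196, a shieldin subunit, fell by 1.00 ± 0.23, while the Ku subunit XRCC5 rose by 0.51 ± 0.10. Mismatch and base excision repair fell in 11 of 20 cases and rose in 2. XRCC1, the scaffold of single-strand break repair, was at -2.47 ± 0.13, the glycosylase MUTYH at -1.14 ± 0.16 and the flap nuclease FEN1 at -1.08 ± 0.13 in the deposited table.

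Of 24 ATR and ATM signalling genes 12 fell and 5 rose (median -0.28). TIMELESS of the fork protection complex fell by 1.53 ± 0.13, HUS1 of the checkpoint clamp fell by 1.12 ± 0.11 and CLSPN, the CHK1 mediator, fell by 0.79 ± 0.16 in the deposited table. RAD9A, which sits in the same clamp as HUS1, rose by 0.62 ± 0.13, the clamp loader RAD17 by 0.75 ± 0.11 and the phosphatase CDC25A by 0.71 ± 0.13. Of 13 PIKK kinases and TTT-R2TP chaperone genes 6 fell and 4 rose. ATM and MTOR rose by 0.53 ± 0.12 and 0.46 ± 0.10, TRRAP by 0.30 ± 0.11 and TTI1 by 0.32 ± 0.11. PRKDC, the DNA-dependent kinase, fell by 0.50 ± 0.10, TELO2 fell by 0.49 ± 0.15 and RUVBL2, RPAP3 and RUVBL1 fell by 0.75 ± 0.13, 0.48 ± 0.14 and 0.37 ± 0.10. ATR, SMG1 and PIH1D1 had no call, at -0.04 ± 0.10, 0.12 ± 0.11 and -0.16 ± 0.10 in the deposited table. Members of the TTT complex therefore did not share a direction: TTI2 and TELO2 were lower and TTI1 higher.

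Genes named as E4F1 targets in earlier work, a list given from memory with binding in these cells not examined, fell in 3 of 8 cases and rose in 2 (median -0.13). Just 1 was also called lower by the second route. TTI2 was at -0.35 ± 0.14 and the checkpoint kinase CHEK1 at -0.29 ± 0.11. DLAT and DLD encode subunits of the pyruvate dehydrogenase complex: DLAT was at -0.15 ± 0.10 with no call and DLD rose by 0.46 ± 0.11 in the deposited table. MPC1, of the mitochondrial pyruvate carrier, and PDPR, a regulator of pyruvate dehydrogenase phosphatase, were at -0.12 ± 0.14 and 0.18 ± 0.13 with no call. ELP3, of the Elongator complex, rose by 0.38 ± 0.10 under gemcitabine and was at -0.35 ± 0.15 without drug, the 1 member whose effect differed (0.73 ± 0.18). Promoters of 5 of the 8 were found in the RefSeq table and none held TGACGTNA, a word of the ATF type to which E4F1 was first described to bind. Among genes with a mean of at least 50, 5.03% held it, so its absence from only 5 promoters says little. Of genes at that level it was in 43 of 707 promoters (6.08%) of those that fell by at least 1. It was in 24 of 603 (3.98%) of those that rose by at least 1.

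Of 22 listed genes of gemcitabine handling 8 were lower and 7 higher (median -0.07). Among all genes with a mean of at least 50, 29.8% were lower and 29.6% higher, so the count does not set this list apart. The main equilibrative importer SLC29A1 fell by 0.60 ± 0.09 and the activating kinase DCK was at -0.18 ± 0.12 with no call. DCTD, which deaminates deoxycytidylate and gemcitabine monophosphate, fell by 1.17 ± 0.11, and the efflux pump ABCG2 fell by 0.96 ± 0.15 in the deposited table. ABCC5, an exporter of nucleotide analogues, rose by 1.52 ± 0.14, and NT5E, the cell surface nucleotidase CD73, by 1.74 ± 0.14. The drug's targets RRM1 and RRM2 fell by 0.79 ± 0.11 and 1.04 ± 0.12.

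Of 34 replication-dependent histone genes 23 rose and none fell (median 1.23), but most were scarce. Among the 11 with a mean of at least 50 all rose, around a median of 2.60. HIST1H2AC (ENSG00000180573, chromosome 6, 26124145 to 26139116, plus strand, GRCh38) was at 4.74 ± 0.18, HIST1H2BD at 3.24 ± 0.22 and HIST2H2BE at 3.20 ± 0.23 in the deposited table. Without drug HIST1H2AC was at 2.10 ± 0.18, a difference of 2.64 ± 0.26, and gemcitabine itself moved it by -2.99 ± 0.24 in shCTRL cells, in a table that shares the shCTRL gemcitabine libraries. The effect differed for 6 of the 34 and was larger under gemcitabine in each. Histone mRNA mostly lacks a poly(A) tail. Since polyadenylated RNA was sequenced, total histone mRNA may differ from these values. How reads shared by near-identical histone genes were counted is not given in the sources used here.

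p53 targets did not move together, 12 of 29 lower and 10 higher (median -0.12). GADD45A fell by 2.11 ± 0.10, GDF15 fell by 2.46 ± 0.16 and the kinase PLK3 fell by 1.37 ± 0.17, while TP53INP1, BTG2 and the sestrin SESN2 rose by 2.21 ± 0.20, 1.15 ± 0.13 and 1.29 ± 0.12 in the deposited table. GDF15 and TP53INP1 were at -1.87 and 1.70 by the second route. In the BCL2 family 5 of 16 fell and 3 rose: BMF rose by 2.93 ± 0.34, BCL2L11, encoding the BH3-only protein BIM, by 0.90 ± 0.14 and BCL2 by 0.72 ± 0.10, and the pore-forming BAK1 fell by 0.83 ± 0.13. Caspases, death receptors and inhibitors were balanced at 6 higher and 6 lower of 22. CASP9 fell by 1.13 ± 0.17, its activator APAF1 rose by 0.73 ± 0.12 and the receptor FAS by 0.84 ± 0.13 in the deposited table. The inhibitor BIRC2 fell by 0.88 ± 0.10, and BIRC3, at a mean of 30040, was at 0.27 ± 0.30 with no call.

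**Figure D3:**
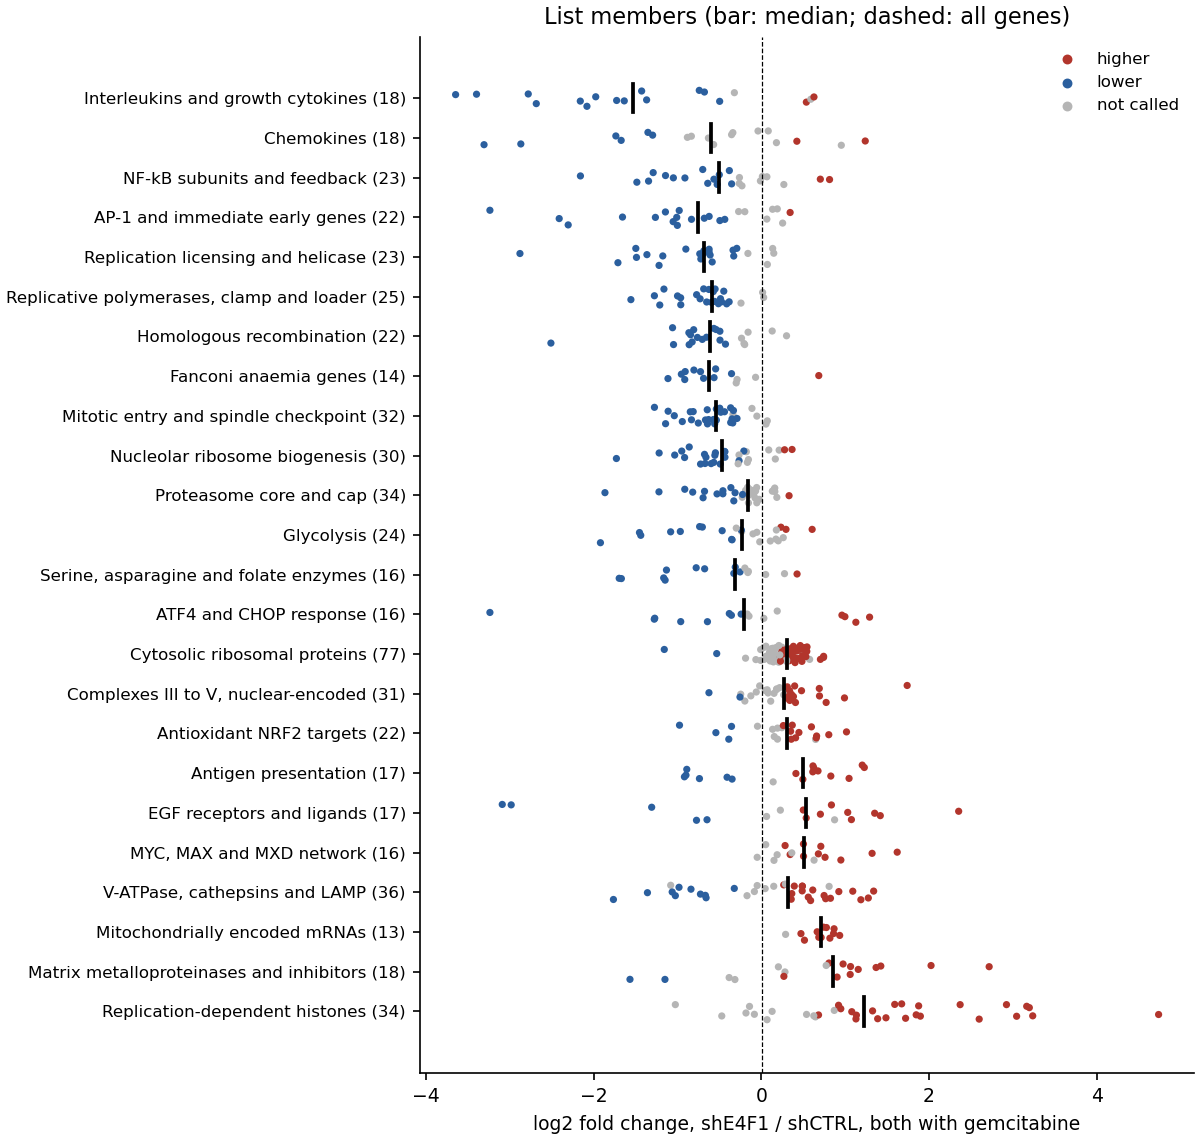
Log2 fold change of shE4F1 over shCTRL under gemcitabine for every listed member of 24 gene lists (points; number of members in brackets), with the list's median as a black bar and the median of all genes as a dashed line. Interleukins (median -1.53) lie furthest left and replication-dependent histones (median 1.23) furthest right, while lists such as ATF4 and CHOP response hold members on both sides of 0.

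Of the 73 lists, the ATF4 and CHOP response held the largest share of members whose effect differed between conditions. ATF4 is a transcription factor that eIF2 alpha kinases raise under amino acid shortage and endoplasmic reticulum stress; with CHOP it drives amino acid synthesis, uptake and tRNA charging. Under gemcitabine 8 of 16 ATF4 and CHOP response genes fell and 4 rose (median -0.21), whereas 13 fell and none rose without drug (median -1.25). The difference was called for 12 of the 16, each time with a higher effect under gemcitabine, and for 11 after centring both tables on their medians. ATF4 itself was at 0.03 ± 0.12 with gemcitabine and fell by 1.02 ± 0.14 without it in the deposited tables. CHAC1, a glutathione-degrading enzyme, was at -0.17 ± 0.16 and -3.05 ± 0.42, a difference of 2.88 ± 0.45, and TRIB3, a pseudokinase, at -0.64 ± 0.13 and -3.14 ± 0.25, a difference of 2.50 ± 0.28. DDIT4, an inhibitor of mTORC1, rose by 0.96 ± 0.13 with gemcitabine and fell by 1.58 ± 0.13 without. DDIT3, the gene of CHOP, was lower in both, at -0.96 ± 0.10 and -1.59 ± 0.23, and PPP1R15A, encoding the eIF2 alpha phosphatase subunit GADD34, fell by 1.27 ± 0.10. JDP2 and CEBPB, basic leucine zipper partners, rose by 1.13 ± 0.10 and 1.00 ± 0.15.

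Enzymes of serine, asparagine and one-carbon folate metabolism fell in 10 of 16 cases and rose in 1 (median -0.32), against 11 lower and none higher without drug (median -1.47). Of the 16, 10 differed, all with an effect nearer to 0 or above under gemcitabine. PSPH, the last enzyme of serine synthesis, fell by 1.70 ± 0.11 and MTHFD2, of mitochondrial folate metabolism, fell by 1.67 ± 0.10 in the deposited table. ASNS, asparagine synthetase, was at -0.68 ± 0.14 and -2.49 ± 0.21, a difference of 1.82 ± 0.25. CTH, of cysteine synthesis, fell by 1.17 ± 0.13 with drug and fell by 2.94 ± 0.24 without. SHMT2, mitochondrial serine hydroxymethyltransferase, was at 0.05 ± 0.09 and -0.55 ± 0.13, and ALDH18A1, of proline synthesis, rose by 0.43 ± 0.10. PCK2, mitochondrial phosphoenolpyruvate carboxykinase and a known ATF4 target, was at -0.09 ± 0.13 with no call under gemcitabine and -2.00 ± 0.22 without.

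Amino acid transporters were mixed under gemcitabine, 7 of 22 lower and 5 higher (median -0.09), and fell in 13 and rose in 5 of 21 without drug (median -0.67). The large neutral amino acid transporter SLC7A5 fell by 1.43 ± 0.11 with gemcitabine and fell by 2.36 ± 0.20 without, and SLC38A4 fell by 1.55 ± 0.20. SLC38A2, the most abundant, was at 0.02 ± 0.11 and -0.68 ± 0.15, and the glycine transporter SLC6A9 at 0.09 ± 0.15 and -1.69 ± 0.24 in the deposited tables. SLC1A1 and SLC1A3, glutamate transporters, and SLC6A6, the taurine transporter, rose by 1.78 ± 0.17, 1.09 ± 0.10 and 1.36 ± 0.10. Cytosolic aminoacyl-tRNA synthetases fell in 11 of 20 cases and rose in 2 (median -0.25), against 14 lower and none higher without drug (median -0.68). TARS and AARS fell by 0.84 ± 0.09 and 0.74 ± 0.09, RARS fell by 0.52 ± 0.09, and QARS and IARS rose by 0.46 ± 0.11 and 0.25 ± 0.09. The difference was called for 9 of the 20, all higher under gemcitabine.

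Promoters of MARS, the methionyl-tRNA synthetase gene (MARS1 in RefSeq), and CHAC1 hold the amino acid response word TGATGCAA (RefSeq, GRCh38.p14). ATF4 with a C/EBP partner is known to bind this word, which here reads on the opposite strand, in capitals. Each was chosen as the gene of its list that differed most between conditions, among members with a mean of at least 50 that hold the word.
MARS, chr12:57487818-57488117, plus strand: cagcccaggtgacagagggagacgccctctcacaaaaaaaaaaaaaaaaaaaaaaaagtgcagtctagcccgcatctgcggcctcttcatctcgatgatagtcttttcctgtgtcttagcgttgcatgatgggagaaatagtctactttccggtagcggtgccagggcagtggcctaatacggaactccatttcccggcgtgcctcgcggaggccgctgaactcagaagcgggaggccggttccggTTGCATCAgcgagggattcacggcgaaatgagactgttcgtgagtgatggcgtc
CHAC1, chr15:40953221-40953520, plus strand: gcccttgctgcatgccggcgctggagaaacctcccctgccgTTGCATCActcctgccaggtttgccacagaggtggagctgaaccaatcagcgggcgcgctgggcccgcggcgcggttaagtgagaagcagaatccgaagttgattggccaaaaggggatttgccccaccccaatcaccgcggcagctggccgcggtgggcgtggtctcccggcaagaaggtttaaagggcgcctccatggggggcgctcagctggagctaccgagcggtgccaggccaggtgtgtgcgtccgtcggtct
The word starts 4 bases before the start of MARS and 209 bases before that of CHAC1. It lay in 6 of 16 synthetase promoters, those of AARS, CARS, IARS, MARS, NARS and TARS, against 0.923% of all RefSeq promoters and 0.539% of those of genes with a mean of at least 50. Among the genes whose knockdown effect was higher under gemcitabine, 14 of 453 promoters (3.09%) held it, and of those with a lower effect 1.11%. MARS fell by 0.42 ± 0.10 with gemcitabine and fell by 1.64 ± 0.19 without. Its difference of 1.22 ± 0.21 is the value by which it was chosen, so it is no separate support.

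**Figure D4:**
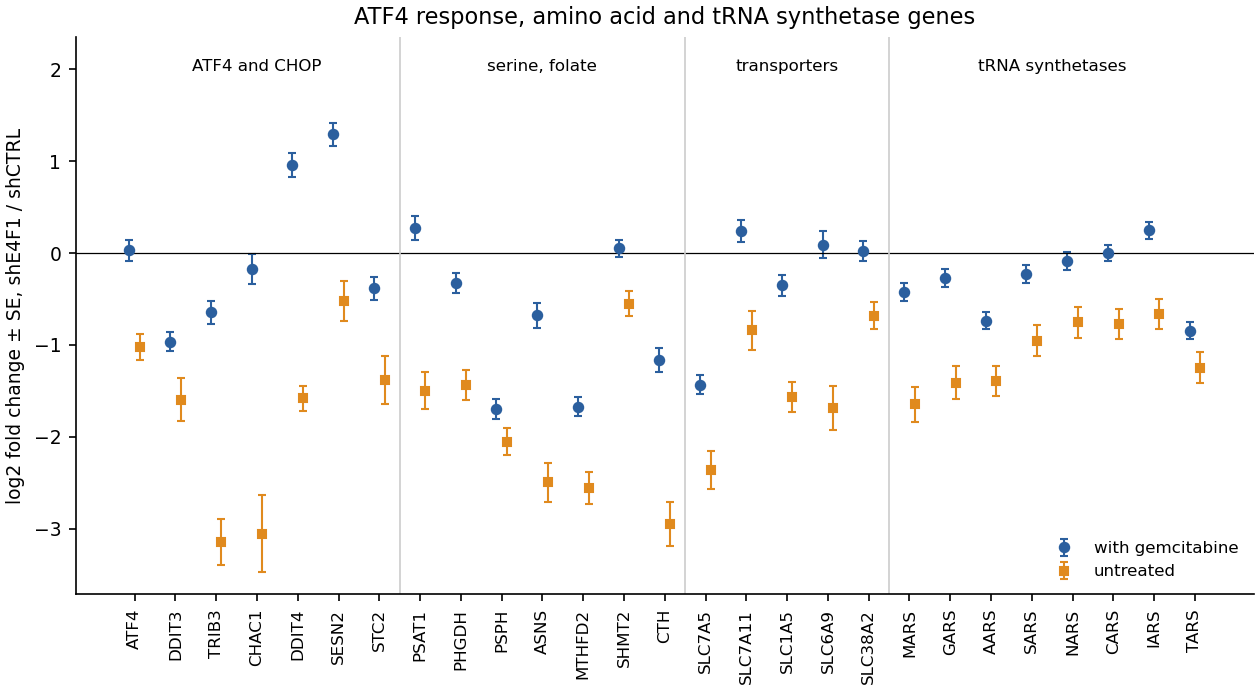
Log2 fold changes of shE4F1 over shCTRL (vertical axis, bars ± SE) for genes of the ATF4 response, serine and folate metabolism, amino acid transport and tRNA charging, with gemcitabine (blue circles) and untreated (orange squares). Each blue circle lies above its orange square; CHAC1 stands at -0.17 with gemcitabine and -3.05 without, and DDIT4 and SESN2 lie above 0 under gemcitabine.

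In the unfolded protein response list 7 of 21 fell and 6 rose under gemcitabine (median -0.09), against 10 and 1 without drug. The sensor ERN1 fell by 1.13 ± 0.11 and XBP1, whose mRNA it splices, fell by 0.74 ± 0.10, while DNAJB9 and HERPUD1 rose by 1.09 ± 0.14 and 0.83 ± 0.12 in the deposited table. HERPUD1 had been lower without drug, at -0.62 ± 0.15. Among 18 heat shock genes 7 rose and 3 fell (median 0.22): HSPA1B rose by 1.66 ± 0.15 and HSPA8, the constitutive HSP70, by 1.32 ± 0.11, while HSF1 and the mitochondrial chaperonin HSPD1 fell by 0.45 ± 0.14 and 0.45 ± 0.11. By the second route the median of the heat shock list was 0.19, and none of these calls was made at its larger SE. The list of NRF2 targets of the antioxidant response, which also holds the NRF2 gene NFE2L2, rose in 11 of 22 cases and fell in 4 (median 0.30). AKR1C2 rose by 1.01 ± 0.12, thioredoxin reductase TXNRD1 by 0.80 ± 0.10 and ferritin heavy chain FTH1 by 0.66 ± 0.13, and the transcription factor NFE2L2 fell by 0.36 ± 0.12 in the deposited table.

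Among 77 cytosolic ribosomal protein genes 42 rose and 2 fell (median 0.30). Most shifts were small, from RPS27 at 0.74 ± 0.10 and RPL7A at 0.74 ± 0.11 down to RPS3A, which fell by 1.16 ± 0.12. By the second route the median was 0.27, but at its larger SE only 2 rose and 2 fell. Without drug the median was 0.02, and each of the 77 differences was positive, although only 2 were called. Nucleolar ribosome biogenesis genes went the other way, 20 of 30 lower and 2 higher (median -0.47), with 10 lower by the second route. RRP12 fell by 1.73 ± 0.11, the rRNA methyltransferase NOP2 fell by 1.22 ± 0.10 and NOP16 fell by 1.04 ± 0.11, and the RNA polymerase I subunits POLR1B and POLR1A rose by 0.37 ± 0.10 and 0.28 ± 0.10 in the deposited table. In untreated cells 24 of these 30 nucleolar genes fell and 1 rose (median -0.62), and the 5 called differences were all positive. Mitochondrial ribosomal proteins fell in 27 of 78 cases and rose in 12 (median -0.09), led by MRPS24 at -2.23 ± 0.16 and MRPS10 at -1.53 ± 0.10.

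Mitochondrially encoded mRNAs rose in 12 of 13 cases (median 0.71), and 10 were also called by the second route. MT-CYB rose by 0.93 ± 0.12, MT-ND3 by 0.87 ± 0.11, MT-ATP8 by 0.86 ± 0.16 and MT-CO1, with a mean of 210000, by 0.70 ± 0.11 in the deposited table. Of 20 listed mitochondrial tRNA genes 14 rose, around a median of 1.04. Nuclear-encoded subunits of complexes III to V rose in 15 of 31 cases and fell in 2 (median 0.27), 2 and 0 by the second route: COX7C of cytochrome oxidase rose by 1.74 ± 0.11 and UQCR10 by 0.99 ± 0.11, while the ATP synthase gamma subunit ATP5C1 fell by 0.63 ± 0.10. Complex I genes were mostly not called, 6 of 37 higher and 4 lower. In the machinery of mitochondrial gene expression 3 of 22 rose and 4 fell. The coactivators PPARGC1B and PPARGC1A rose by 1.37 ± 0.12 and 1.26 ± 0.14, and SSBP1, the single-strand binding protein of mitochondrial DNA, fell by 1.09 ± 0.09 in the deposited table.

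Pyruvate dehydrogenase and TCA cycle genes were split, 9 of 32 lower and 7 higher (median -0.01). IDH3A fell by 0.97 ± 0.09 and IDH3G, of the same isocitrate dehydrogenase, rose by 0.84 ± 0.12; the kinase PDK2 fell by 0.91 ± 0.17 and IDH2 rose by 0.57 ± 0.10. Of 24 glycolysis genes 11 fell and 3 rose (median -0.24). The lactate and pyruvate transporter SLC16A1 fell by 1.92 ± 0.09, PFKFB2 fell by 1.46 ± 0.20 and ENO2 fell by 1.44 ± 0.14, hexokinase HK1 rose by 0.61 ± 0.10, and GAPDH was at 0.20 ± 0.09 with no call in the deposited table. In cholesterol synthesis 10 of 22 genes fell and 4 rose (median -0.21), against 2 and 2 without drug. TM7SF2 fell by 1.87 ± 0.24, INSIG1, the sterol sensor partner, fell by 1.10 ± 0.18 and EBP fell by 0.92 ± 0.10. Fatty acid genes did not share a direction, 7 of 20 higher and 5 lower; ACSL5 rose by 1.06 ± 0.10 and ELOVL7 fell by 0.93 ± 0.11 in the deposited table.

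Some very abundant extracellular matrix transcripts rose. FN1, fibronectin, rose by 1.78 ± 0.27 at a mean of 157800, and TGFBI, a TGF-beta-induced adhesion protein, by 1.68 ± 0.12 at a mean of 131300 in the deposited table. Of 31 collagens 10 rose and 8 fell (median 0.09). COL5A1 rose by 2.09 ± 0.15, COL6A1 by 1.64 ± 0.14 and COL6A3 by 1.35 ± 0.11, and the fibrillar collagens COL1A1 and COL3A1 fell by 1.90 ± 0.17 and 2.50 ± 0.19. COL3A1 was higher with the knockdown in the absence of drug, at 0.98 ± 0.30, a difference of -3.48 ± 0.36. In collagen processing 7 of 15 genes rose and 5 fell: the crosslinking oxidase LOX rose by 2.02 ± 0.17 and the propeptidase ADAMTS2 by 2.02 ± 0.18, and the collagen chaperone SERPINH1 fell by 0.98 ± 0.10.

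Matrix metalloproteinases and inhibitors rose in 11 of 18 cases and fell in 2 (median 0.85), with 5 higher and 1 lower by the second route. MMP3 rose by 2.72 ± 0.16, MMP15 by 2.02 ± 0.21 and the gelatinase MMP2 by 1.42 ± 0.15 at a mean of 10560, and MMP19 fell by 1.15 ± 0.13 in the deposited table. In the plasminogen system 4 of 9 fell and none rose. SERPINE2, protease nexin 1, fell by 1.46 ± 0.24. Integrins were balanced, 8 of 27 in each direction: ITGA11, a collagen receptor, rose by 2.15 ± 0.26, ITGB8 by 1.04 ± 0.12, and ITGB3 fell by 1.40 ± 0.16. Laminin LAMB3 fell by 2.28 ± 0.13, and thrombospondin 1, THBS1, rose by 0.88 ± 0.14 in the deposited table.

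Among 34 genes of TGF-beta, activin and BMP signalling 12 rose and 8 fell (median 0.08). The co-receptor TGFBR3 rose by 1.63 ± 0.10, the BMP antagonist NOG by 1.54 ± 0.19 and the BMP target ID1 by 1.51 ± 0.42, and the ligands INHBA, TGFB2 and BMP2 fell by 1.55 ± 0.20, 1.11 ± 0.11 and 1.11 ± 0.25 in the deposited table. INHBA, the activin A subunit, had been higher with the knockdown without drug, at 2.41 ± 0.46, a difference of -3.97 ± 0.50; its fall was not called by the second route. INHBE, another activin subunit, was at -0.90 ± 0.40 with no call under gemcitabine and -3.82 ± 0.30 without. Of 21 EMT and keratin genes 8 rose and 2 fell (median 0.14): TWIST1 rose by 0.80 ± 0.19 and CD24 by 1.86 ± 0.18, CDH2 (N-cadherin) fell by 0.23 ± 0.09, and VIM was at -0.01 ± 0.10 with no call. HMGA2 stood apart from its paralog HMGA1, which fell by 0.76 ± 0.12, and IGF2BP3 rose by 1.00 ± 0.29. The list of YAP and TEAD targets, which also holds genes of YAP and TEAD themselves, went 6 of 19 up and 6 down. ANKRD1 fell by 1.88 ± 0.11 with gemcitabine and rose by 0.56 ± 0.22 without, a difference of -2.44 ± 0.24, and the receptor kinase AXL fell by 1.85 ± 0.10 in the deposited table.

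Of 27 Wnt pathway genes 12 rose and 3 fell (median 0.34). The feedback inhibitor NKD1 rose by 2.58 ± 0.24 and the receptor FZD4 by 1.26 ± 0.12, and RNF43, which removes Frizzled receptors, fell by 1.10 ± 0.12. In the VEGF list 8 of 20 rose and 5 fell: KDR rose by 2.92 ± 0.14, NRP2 by 1.08 ± 0.17 and ANGPT1 by 1.07 ± 0.16, while VEGFA fell by 0.42 ± 0.12 and FGF2 fell by 0.77 ± 0.12 in the deposited table. The hypoxia list, which holds targets and also the factors HIF1A and EPAS1 themselves, was balanced at 7 of 19 each way. HIF1A, at a mean of 32380, fell by 0.66 ± 0.11 and EPAS1 fell by 0.79 ± 0.11, KDM3A rose by 1.54 ± 0.10 and CA12 by 1.42 ± 0.10, and ADM, adrenomedullin, fell by 1.24 ± 0.15 with drug and rose by 1.38 ± 0.26 without.

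The list of the MYC, MAX and MXD network, which also holds TSC22D3, TXNIP and ARRDC4, rose in 10 of 16 cases (median 0.50). None of its members fell, and 6 were higher by the second route. The count is thus not of MYC, MAX and MXD genes alone. MXD4 and MXD1, repressors that compete with MYC for MAX, rose by 1.62 ± 0.16 and 0.95 ± 0.11, and MYC itself by 0.34 ± 0.12. TSC22D3, the glucocorticoid-induced leucine zipper, rose by 1.32 ± 0.13 and had been lower without drug, at -0.59 ± 0.14, a difference of 1.91 ± 0.19. TXNIP, at a mean of 44950, was at 0.05 ± 0.10 with no call in the deposited table. Among 26 Polycomb and DNA methylation genes 10 fell and 8 rose. EED fell by 0.87 ± 0.12 and DNMT3B fell by 0.66 ± 0.17, and CBX7 rose by 1.36 ± 0.15.

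Splicing regulators of the SR and hnRNP families rose in 9 of 27 cases and fell in 5 (median 0.08), while without drug none rose and 11 fell. SRSF3 fell by 0.80 ± 0.09 and SRSF7 fell by 0.76 ± 0.11, and HNRNPA0 and SRSF1 rose by 0.69 ± 0.12 and 0.57 ± 0.10 in the deposited table. SNHG host genes and known long noncoding RNAs fell in 9 of 27 cases and rose in 6. SNHG1, a snoRNA host, fell by 1.13 ± 0.09 with drug and fell by 2.25 ± 0.24 without, SNHG15 fell by 1.11 ± 0.10, and SNHG14 rose by 1.58 ± 0.12. NEAT1 was at -0.52 ± 0.33 with no call. In both lists 7 members differed between conditions, all higher under gemcitabine.

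Of 34 proteasome genes 13 fell and 1 rose (median -0.16). The regulatory ATPase PSMC2 fell by 1.87 ± 0.10, PSMD13 fell by 1.22 ± 0.10 and PSMD1 fell by 0.92 ± 0.10, and the catalytic PSMB5 rose by 0.33 ± 0.09 in the deposited table. Among 36 lysosomal V-ATPase, cathepsin and LAMP genes 18 rose and 10 fell (median 0.32): CTSA rose by 1.34 ± 0.10 and CTSD by 1.28 ± 0.33, and ATP6V1E2 and CTSV fell by 1.77 ± 0.20 and 1.36 ± 0.20. By the second route, at its larger SE, 4 rose and 7 fell, around a median of 0.25. Of 26 autophagy genes 8 rose and 5 fell, among them ATG14 at 1.24 ± 0.11, ATG9A at 0.74 ± 0.11 and the lysosomal regulator TFEB at -0.70 ± 0.15. S100A8 and S100A9, which form calprotectin, rose by 2.16 ± 0.39 and 1.87 ± 0.39, among 5 of 14 S100 genes that rose and 3 that fell. Protocadherins rose in 9 of 46 cases and fell in 3, with most too scarce to call; PCDHGB7 rose by 2.11 ± 0.31 and PCDHB6 fell by 1.66 ± 0.23 in the deposited table.

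Genes with a called difference between conditions were followed by direction. Of the 1137 genes, 53 fell under gemcitabine and rose without drug, and 44 rose under gemcitabine and fell without, so that their called signs were opposite. A further 159 fell in both and 121 rose in both, with sizes that differed. Under gemcitabine alone 248 genes were called lower and 204 higher, counting as not called any gene that lacks an adjusted p without drug. Without drug alone 172 were called lower and 131 higher. The most negative differences among genes with a mean of at least 200 in both tables were IL7R, TNFAIP3 and ADAMTS1, a secreted protease, at -2.69 ± 0.22 (-0.69 ± 0.13 with drug, 1.99 ± 0.17 without). Also negative were the thyroid hormone deiodinase DIO2 (-1.84 ± 0.22), the urea transporter SLC14A1 (-1.84 ± 0.28) and the protocadherin PCDH7 (-1.76 ± 0.25). The most positive were INHBE (2.92 ± 0.50), CHAC1, HIST1H2AC, DDIT4, TRIB3, PCK2 (1.91 ± 0.25), TSC22D3, ASNS, SESN2 (1.81 ± 0.25) and SLC6A9 (1.78 ± 0.28). Centring both tables on their medians lowers each difference by 0.0558 and turned the split of 587 higher and 550 lower calls into 434 and 660.

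**Figure D5:**
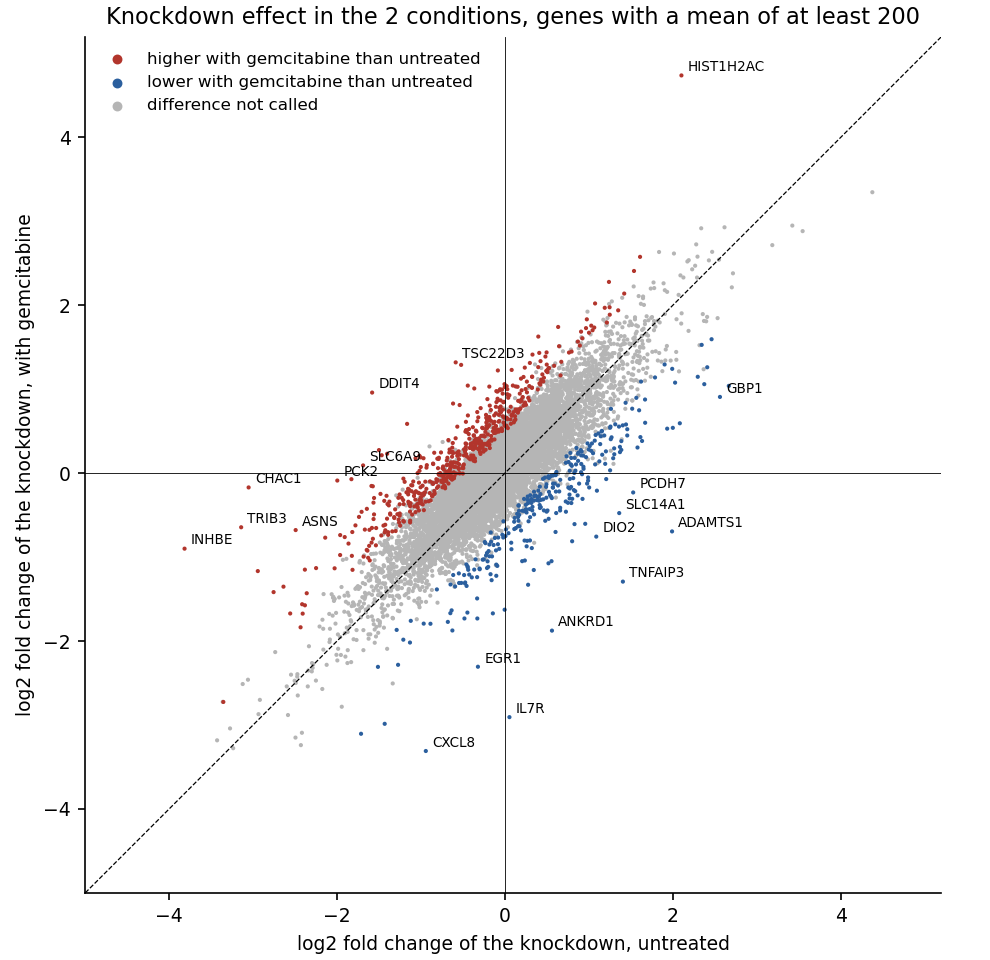
Knockdown effect without drug (horizontal axis, log2) against the knockdown effect with gemcitabine (vertical axis, log2) for 10350 genes with a mean of at least 200 in both tables; the dashed line marks equal effects. Red points (528) had a called higher effect and blue points (293) a called lower effect under gemcitabine, and INHBE, TRIB3, CHAC1 and ASNS lie above the line while IL7R, TNFAIP3 and CXCL8 lie below it.

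The classes of transcripts were unequal. Of 14675 protein-coding genes 3929 rose and 3744 fell, and of the 11587 with a mean of at least 50, 3583 rose and 3454 fell. Among 476 long intergenic noncoding RNAs with a mean of at least 50, 94 rose and 190 fell (median -0.24), and among 454 antisense RNAs at that level 65 rose and 147 fell (median -0.16). Antisense counts depend on the strand setting of the counting, which is not given in the sources used here. Zinc finger genes named ZNF with a mean of at least 50 fell in 150 of 404 cases and rose in 87 (median -0.16). SLC25 mitochondrial carriers, counted at every level, fell in 20 of 49 cases and rose in 9.

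Markers of other cell types were mostly scarce or shared with SUM159 cells. Of 12 luminal epithelial markers 8 were listed, 1 higher and 2 lower, with GATA3 lower at -0.60 ± 0.15 and the keratins KRT8 and KRT18 at 0.05 ± 0.13 and 0.20 ± 0.13; E-cadherin, CDH1, had a mean of only 8.712. Mesenchymal VIM and CD44 had means of 53240 and 10890. Of 10 blood cell markers 4 were listed, and PTPRC, the leukocyte antigen CD45, fell by 3.00 ± 0.27 at a mean of 110.8, while CD14 and LYZ had means of 12.73 and 25.24. Endothelial markers rose in 3 of 7 cases, KDR, PECAM1 (1.17 ± 0.20) and ENG (0.48 ± 0.14), while VWF, TEK and TIE1 had means of 7.418, 9.481 and 14.1 in the deposited table. Of 6 fibroblast markers 3 rose and 1 fell. The largest rise was that of ACTA2 at 1.22 ± 0.15, and the fall, of COL1A1 at -1.9, was larger. EPCAM, PGR, CD3E, CDH5 and COL1A2 are not listed. Summed marker levels per library were not analysed here, and the part of other cell types in these results was not tested.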

How the data were processed

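RNA of 12 SUM159 libraries in 4 groups of 3 (shCTRL or shE4F1, untreated or 140 nM gemcitabine for 24 h) was sequenced by the authors. Reads were aligned to GRCh38.p7 with TopHat2 2.1.1 on Bowtie2 2.2.9, counted with HTSeq 0.9.0 and compared with DESeq2 1.14.1 in R 3.4.0, per the submitters' processing notes. Not given in the sources used here are the model formula, the release of the annotation and whether counting used strand. Per the file headers, each of the 4 deposited tables used gives the mean normalized count (a signal averaged over the libraries compared), the log2 fold change with its standard error, the Wald score, the p-value and the adjusted p-value, all made by the authors. The version of the authors' tool moderates log2 fold changes towards 0 by default, which would shrink scarce genes most; whether the authors used that default is not given. The deposited count table has 12 columns whose headings match no label; they were not used, so no test was run on counts and depth per library is unknown.

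From these tables were computed fold changes as powers of 2, counts and medians over 73 gene lists (1604 distinct members listed), and the difference of the knockdown effects with and without gemcitabine. This difference has a two-sided normal test with summed variances, Benjamini-Hochberg adjusted over 20923 genes. A simulation of it drew normal noise with the deposited SE, so it could not show errors in that SE or from moderated fold changes. Where 20 symbols had more than 1 Ensembl ID, the one with the highest mean was used. Locations are from GENCODE 29 (22297 IDs matched). Promoters and their words are from RefSeq, GRCh38.p14 (13058 genes matched, windows of 300 bases). Python 3.11.15, pandas 2.3.3, numpy 2.4.6, scipy 1.17.1 and matplotlib 3.10.9 were used.

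Genes named are E4F1, all members of the E4F1 target, PIKK and CDK inhibitor lists, the 12 largest rises and falls with a mean of at least 200, up to 3 rises and 3 falls with a mean of at least 50 and the most abundant member per list, and the 10 largest differences each way. Named beyond that rule, after their values were seen, were ATF4, CSF2, TSLP, LIF, the CXCL genes other than CXCL1, CXCL8 and CXCL16, NFKB1, NFKB2, REL, RELA, ICAM1, FOS, JUN, the MCM genes other than MCM3, the uncalled ORC genes, DBF4, PCNA, RPA1, UHRF1, RRM1, DCK, SLC29A1, MARS, CARS, NARS and the cell type markers without a call. The comparison and the lists were chosen with earlier results of these data known. Some genes that the rule names are not reported here.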

Additional observations from a re-analysis of the deposited data

Results flagged for a closer look

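For 88 of the genes named above the knockdown effect differed between gemcitabine and untreated cells by the test of the difference itself, 46 with a higher and 42 with a lower effect under gemcitabine. Values are the difference of log2 fold changes (gemcitabine minus untreated) with its SE, from 3 against 3 libraries in each condition.

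Inflammatory genes with a lower effect under gemcitabine were the cytokines IL1B (-2.30 ± 0.56), IL6 (-1.16 ± 0.31), CSF2 (-2.61 ± 0.64), CXCL8 (-2.37 ± 0.42) and CXCL1 (-2.06 ± 0.61). The fall of CSF2 under gemcitabine is itself uncertain, as given above. Among receptors they were IL7R (-2.96 ± 0.33), IL31RA (-1.31 ± 0.20) and IL6R (-0.82 ± 0.26), while IL1RL1 was higher (0.85 ± 0.27). In the NF-kB list they were TNFAIP3 (-2.70 ± 0.23), TRAF1 (-2.53 ± 0.43), REL (-1.15 ± 0.25), ICAM1 (-0.84 ± 0.20) and NFKB2 (-0.73 ± 0.22). The interferon-induced GBP1 differed by -1.65 ± 0.25. Immediate early genes with a lower effect were EGR1 (-1.98 ± 0.64), FOS (-1.91 ± 0.47), KLF6 (-0.87 ± 0.20) and JUN (-0.76 ± 0.22). In ERK and EGF receptor signalling PTPRR (-2.99 ± 0.45) and HBEGF (-1.55 ± 0.25) were lower, and ETV5 (1.12 ± 0.21) and ERRFI1 (0.88 ± 0.21) higher.

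Amino acid response genes with a higher effect were CHAC1 (2.88 ± 0.45), DDIT4 (2.54 ± 0.19), TRIB3 (2.50 ± 0.28), SESN2 (1.81 ± 0.25), ATF4 (1.05 ± 0.18), CEBPB (1.03 ± 0.21) and JDP2 (0.93 ± 0.17). Enzymes with a higher effect were PCK2 (1.91 ± 0.25), ASNS (1.82 ± 0.25), CTH (1.78 ± 0.27), MTHFD2 (0.89 ± 0.20) and SHMT2 (0.60 ± 0.16). Transporters were SLC6A9 (1.78 ± 0.28), SLC7A5 (0.93 ± 0.23) and SLC38A2 (0.70 ± 0.18), and synthetases MARS (1.22 ± 0.21), IARS (0.91 ± 0.19), CARS (0.77 ± 0.19), NARS (0.67 ± 0.19) and AARS (0.66 ± 0.19). In the unfolded protein and antioxidant responses HERPUD1 (1.45 ± 0.20), XBP1 (1.23 ± 0.21), DNAJB9 (0.83 ± 0.27), FTH1 (0.64 ± 0.19) and TXNRD1 (0.58 ± 0.16) were higher.

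Of growth and cell cycle genes CDKN1A (-0.92 ± 0.22), CCNE1 (-0.92 ± 0.28) and BTG2 (-1.15 ± 0.24) were lower, and CKS1B (0.63 ± 0.19), E2F5 (0.64 ± 0.20), FANCF (0.60 ± 0.19), TK2 (0.70 ± 0.18), NT5E (0.67 ± 0.21), ELP3 (0.73 ± 0.18), MXD1 (0.77 ± 0.24) and TSC22D3 (1.91 ± 0.19) higher. Histones were higher: HIST1H2AC (2.64 ± 0.26), HIST1H2BD (1.89 ± 0.33) and HIST2H2BE (1.30 ± 0.32). RNA and mitochondrial genes with a higher effect were SNHG1 (1.12 ± 0.25), HNRNPA0 (0.77 ± 0.18), SRSF1 (0.58 ± 0.16), MT-ATP8 (0.66 ± 0.21) and MT-ND3 (0.58 ± 0.18). PPARGC1A (-1.15 ± 0.27), ELOVL7 (-0.73 ± 0.20) and PSMC2 (-0.58 ± 0.18) were lower.

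Among the matrix and growth factor genes named, those with a lower effect were INHBA (-3.97 ± 0.50), COL3A1 (-3.48 ± 0.36), ADAMTS1 (-2.69 ± 0.22), ANKRD1 (-2.44 ± 0.24), BMP2 (-1.73 ± 0.49), ITGB8 (-1.63 ± 0.25), LAMB3 (-1.01 ± 0.29) and MMP19 (-0.71 ± 0.23). INHBE (2.92 ± 0.50) and SERPINH1 (0.84 ± 0.16) were higher. Others with a lower effect were ADM (-2.62 ± 0.30), RNF43 (-1.01 ± 0.21), FHL2 (-1.39 ± 0.22), DIO2 (-1.84 ± 0.22), SLC14A1 (-1.84 ± 0.28), PCDH7 (-1.76 ± 0.25), CFAP58 (-2.59 ± 0.32) and LINC01468 (-2.66 ± 0.45).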

How the results depend on the processing

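Taking the knockdown effect from the 2 tables that share the untreated shCTRL libraries lowered the genes called from 9202 to 3649 and the list members called from 988 to 419 (170 higher, 249 lower), and left E4F1 at -0.89 with an adjusted p of 0.0763 (0.0763 to 1.19e-07 over its alternatives). The SE there counts those libraries in both tables, with a median of 0.325 against 0.206. In the values themselves they cancel, which leaves the same gemcitabine libraries as in the direct table. Kept directions are therefore no independent support, and a call lost there can come from the larger SE alone. Of 10848 genes with a mean of at least 200, 13 moved by over 0.5, among them CXCL8, CLDN1, AREG, IL1A, ABCC9, GDF15, TNFRSF9, CSF2, MGP, TP53INP1, ST3GAL5 and LBH, the cause of which was not tested. Among the named genes that route kept every called direction but lost the call of ALDH18A1, ASNS, ATM, ATP5C1, BMP2, CD24, CDH2, CDKN2C, CDKN3, CHEK1, CLSPN, CSF2, CTPS2, CXCL1, CXCL16, DLD, DNMT3B, EGFR, ELP3, ENG, EPGN, FGF2, FOS, GATA3, HK1, HSF1, HSPA1B, HSPA8, HSPD1, IARS, IDH2, IGF2BP3, IL7, INHBA, INSIG1, KIF20A, KIF23, MARS, MCM3, MCM4, MCM6, MTOR, MYC, NFE2L2, NFKB2, PDK2, PECAM1, POLQ, POLR1A, POLR1B, PPP1R15A, PRKDC, PSMB5, PTX3, QARS, RAD9A, RARS, REL, RPAP3, RPL7A, RUVBL1, SLC14A1, SLC29A1, SPRY1, TELO2, TFDP2, TFEB, TK2, TMEM173, TRIB3, TRRAP, TTI1, TTI2, TWIST1, VEGFA and XRCC5.

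The other alternatives kept the counts within 1.5 times. Genes with a mean of at least 50 alone gave 8110 calls (4046 higher, 4064 lower), centring gave 9207 (4498 higher, 4709 lower), and adjusting the p-values again gave 9202. For list members they gave 938 and 985. The differences between conditions numbered 1133 at a mean of at least 50 in both tables (681 higher, 452 lower) and 1094 after centring (434 higher, 660 lower), against 587 higher and 550 lower as computed. Centring ended the called difference of CKS1B, DNAJB9, E2F5, FANCF, IL1RL1, MT-ATP8, MT-ND3, MXD1 and NT5E, and the call of CXCL16. No paired analysis was possible because the tables used hold no value per library and the headings of the count columns match no label; count tests with edgeR or DESeq2 and fits leaving out a library were not run for the same reason. Depth limits genes with a mean under 10, of which 6.5% were called.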
